A study of Homo sapiens with 2 samples.

Results

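The array used here, the Affymetrix Human Exon array, carries a probe set for each known or predicted exon, and the platform's probe-to-gene table gives a gene symbol to most of them. The values below are those of the 16901 probe sets, of 287329 with deposited values (5.88%), for which that table gave no symbol. Shares given below for the whole array are over these 287329, which need not be all the probe sets it carries. They were chosen by the missing name alone, with no use of signal. A further 261481 probe sets (91.0%) had 1 gene and 8947 (3.11%) had several. A missing symbol says only that the table used here did not name the probe set. It does not say that the probe set lies outside genes. The files gave no position or sequence for these probe sets, so each is described by its signal, by its place in the order of probe set IDs and by the named probe sets on either side.

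Total RNA came from the colorectal cancer cells HCT116, an established human line (HCT116-WT), and from HCT116-DKO, derived from them, in which DNMT1 and DNMT3b are both disrupted. Both lines were grown untreated in McCoy's 5A medium with fetal bovine serum, and the biotin-labelled RNA of each was hybridized to 1 array. HCT116-DKO is 1 derivative line, and every difference below is HCT116-DKO minus HCT116-WT on the log2 scale between 2 single arrays. There were no replicates, so replicate error could not be measured and no test was run, and a difference between the genotypes cannot be told apart from one between these cultures or arrays.

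DNMT1 copies methylation onto the new strand after DNA replication, and DNMT3B adds methyl groups at new sites. Methylation of promoters keeps many germline genes, repeats and genes of multicopy families silent in body cells and in cancer lines. Probe sets to such families often match several copies at once, and an annotation may assign them to several genes or to none.

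The targeted genes were checked first. The 50 probe sets of DNMT1 had a median signal of 10.84 in HCT116-WT against 9.41 in HCT116-DKO, and each of the 50 was lower, by a median of -1.26. Those of DNMT3B had medians of 8.72 and 6.53, and 30 of 32 were lower, with a median difference of -1.41. Both genes thus fell. Of 8 epithelial and colon markers, 6 were above background in each array, against 0 of 3 measured blood markers, 0 of 3 endothelial markers and 1 of 4 fibroblast markers, and none of these markers changed. Background was set in each array at the 95th percentile of the 1083 probe sets of 292 olfactory receptor genes, which gave 7.76 in HCT116-WT and 7.71 in HCT116-DKO.

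About 1 in 2 probe sets without a gene name gave signal. In HCT116-WT 7737 of them (45.8%) were above background, against 59.5% of the probe sets of 1 gene and 56.2% of those of several genes. In HCT116-DKO 8082 (47.8%) were above background, against 62.1% and 60.0%. Most of them had the same state in both arrays: 7379 were above background in both and 8461 (50.1%) in neither. The remaining ones were unequally split, with 703 (4.16%) above background in HCT116-DKO alone and 358 (2.12%) in HCT116-WT alone. The named probe sets were split in the same direction, with 4.89% against 2.31% for those of 1 gene. In bulk RNA, fewer cells with a transcript and less of it per cell cannot be told apart.

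**Figure D1:**
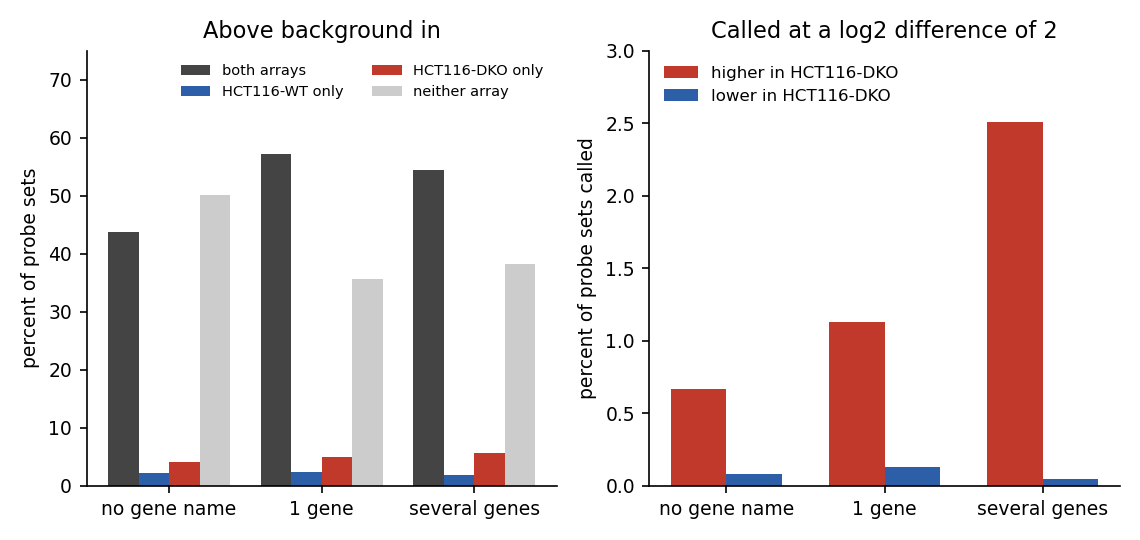
Left, the percent of probe sets above background in both arrays, in 1 array alone or in neither, for probe sets without a gene name (n = 16901), of 1 gene (n = 261481) and of several genes (n = 8947). Right, the percent called higher or lower in HCT116-DKO, at a log2 difference of at least 2 that can start from signal below background. Probe sets without a gene name were above background in neither array in 50.1% and were called higher in 0.669%, the lowest share of the 3 classes in these arrays.

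Across all 16901, HCT116-WT had a median signal of 7.50 and HCT116-DKO one of 7.58, and the difference was centred near 0. Its median was 0.008, its quartiles were -0.27 and 0.32, and 8570 (50.7%) were positive. The difference was under 1 in size in 91.6% of them and under 0.5 in 71.2%. Its SD over the probe sets was 0.659, against 0.716 for probe sets of 1 gene and 0.902 for those of several genes. Between the arrays the signals had a Pearson correlation of 0.966 and a Spearman correlation of 0.967 over probe sets, which share both arrays and are no replicates.

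A probe set was called higher when it was at least 2 higher in HCT116-DKO on the log2 scale and above background there. The difference is 4-fold only where both signals are above background. It was called lower when it was at least 2 lower and above background in HCT116-WT. By this rule 113 of the 16901 (0.669%) were higher and 14 (0.0828%) were lower. Over all 287329 probe sets with values 1.15% were higher and 0.125% were lower. For probe sets of 1 gene the shares were 1.13% and 0.131%, and for those of several genes 2.51% and 0.0447%. Both shares among the probe sets without a name were thus below those of the whole array. Among probe sets above background in at least 1 array the share called higher was 1.34%, against 1.76% for those of 1 gene and 4.07% for those of several. The direction was as uneven as elsewhere on the arrays: 89.0% of the 127 called were higher, against 90.2% over all classes.

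**Figure D2:**
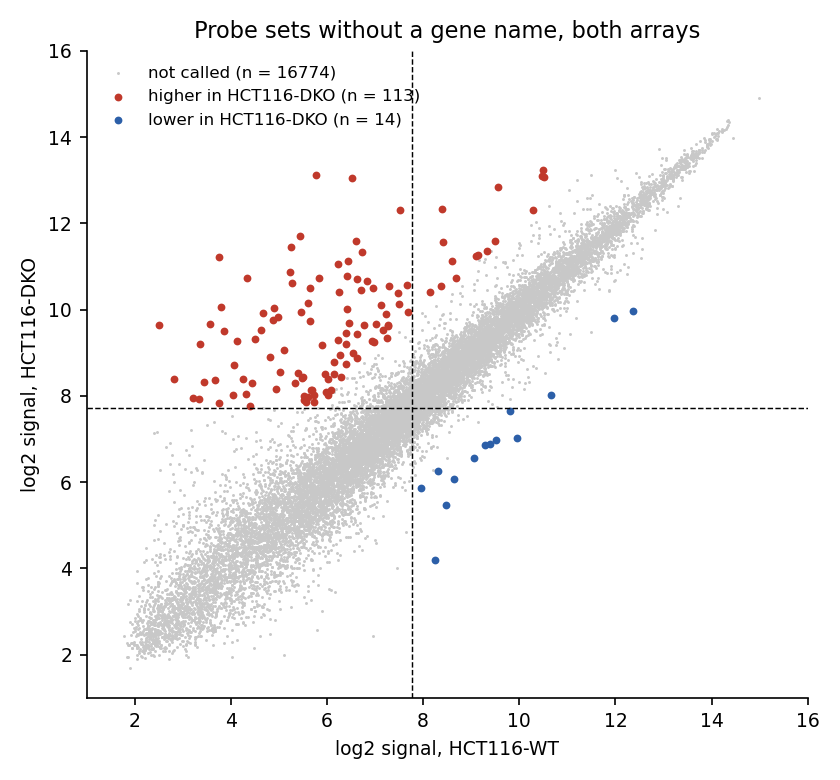
Log2 signal of each of the 16901 probe sets without a gene name in HCT116-WT (horizontal axis) and HCT116-DKO (vertical axis), with dashed lines at the background of each array, 7.76 and 7.71. The 113 called higher (red) lie mostly left of the HCT116-WT background line, and 14 were called lower (blue).

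Most increases started from low signal, as over the whole array, where 2988 of 3298 higher probe sets were not above background in HCT116-WT. Of the 113 higher probe sets, 98 were not above background in HCT116-WT, and for these a fold is given as a lower bound, from the HCT116-DKO signal against background or the probe set's own HCT116-WT signal, whichever was higher. Of the 113, 50 had a fold or bound of at least 4 and 34 had one below 2, and the highest bound was 40.6. The other 15 were above background in both arrays. The differences ran from 2.003 to 7.48, and 42 probe sets were higher by 4 or more, but signals below background give these sizes no firm order. Of the 14 lower ones, 11 were not above background in HCT116-DKO, against 254 of 360 over the whole array. The 14 differences were 2.04 to 4.07 in size. The rule cut through a continuous range: the 4 higher ones just inside it differed by 2.003, 2.02, 2.04 and 2.05, and the 4 just outside by 1.9997, 1.9956, 1.9955 and 1.9929. On the lower side the 4 just inside differed by -2.04, -2.11, -2.15 and -2.16, and the 4 just outside by -1.9985, -1.9880, -1.96 and -1.94.

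Before neighbours were read in ID order, that order was checked. Of 261480 pairs of adjacent probe sets of 1 gene, 93.4% were of the same gene, 99.9% had genes of the same chromosome and 99.9% of the same strand. The nearest probe sets with 1 gene before and after a nameless one lay on 1 chromosome for 16285 of 16603 with both placed (98.1%). Pairs of the same gene share chromosome and strand by definition, so only pairs that change gene could test the order. For nearly all nameless probe sets, the flanking genes in ID order thus shared a chromosome. Order along a chromosome was not tested, ID order is no position, and the distance to a flanking gene is not known from it. The exception was a tail of 31 nameless probe sets whose IDs lay beyond those of all named ones, with a median ID step of 1754 where the step was otherwise 1. Their signals were high, with HCT116-WT and HCT116-DKO medians of 10.61 and 10.37 and 29 of 31 above background in both, and 0 were called. The differences in this tail lay between -0.33 and 0.15, and 28 of 31 were negative.

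A run is a stretch of probe sets without a name that follow each other in ID order with no named one between them. There were 2515 runs, of which 993 held 1 probe set, 324 held 2 and 1198 held 3 or more. These 1198 runs held 15260 of the probe sets, and the 104 runs of 30 or more held 5314. The longest, of 212 probe sets, lay between GDI2, which recycles Rab proteins, and ANKRD16. The increases were not spread evenly over run lengths. In runs of 10 to 29 probe sets 73 of 6492 (1.12%) were higher, whereas in runs of 30 or more only 2 of 5314 (0.0376%) were. The 5 runs with most higher probe sets, which held 38 of them, were all of 10 to 29, so few runs carry that share. Of these 2 classes, 52.9% and 47.4% were above background in HCT116-WT, and what sets the shares apart was not tested. Runs of 3 to 9 had 27 higher (0.782%), pairs had 5 (0.772%) and single ones had 6 (0.604%).

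Most increases shared a run with another increase. The 113 higher probe sets fell in 53 runs, 29 runs held 1 each, and 84 of the probe sets lay in the other 24. The 5 richest runs held 38 of them (33.6%). Of the higher ones, 57.5% stood directly beside another higher probe set without a name, and among probe sets of 1 gene 67.5% of the higher ones stood beside another of their class. Run membership accounted for 32.7% of the variance of the differences, and gene membership accounted for 48.1% among named probe sets. The median SD of the differences was 0.43 within runs and 0.37 within genes. Nothing in the files says how many transcripts a run covers.

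A run of at least 3 counted as changed when its median difference was at least 1 in size, a 2-fold difference, at least 75% of its probe sets differed in that direction, and its median signal was above background where it was higher. Of 1198 runs, 23 rose (1.92%) and 3 fell (0.250%). By the same rule 2.44% of 16253 named genes rose and 0.505% fell. The runs that rose held 229 probe sets and had median differences of 1.02 to 6.52, and in 16 of the 23 the HCT116-WT median was not above background. In 15 of the 23 every probe set differed in the same direction. The nearest gene named alone on either side had changed the same way in 4 of the 26 changed runs. Probe sets shared by several genes did not enter this count, so the runs among shared GAGE probe sets are not in it. Genes with fewer than 3 probe sets could not count as changed.

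**Figure D3:**
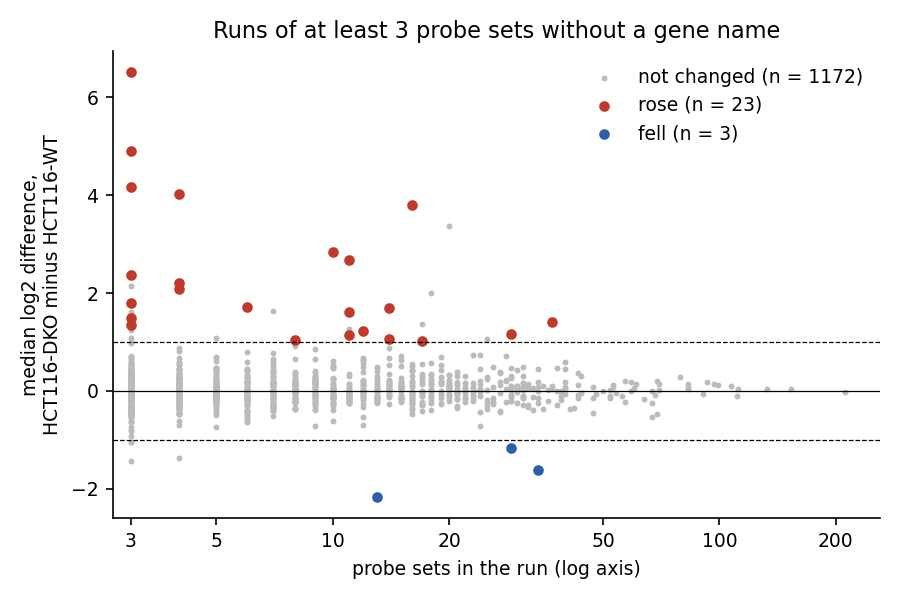
Median log2 difference of each of the 1198 runs of at least 3 probe sets without a gene name (vertical axis) against the number of probe sets in the run (horizontal log axis), with dashed lines at 1 and -1. The 23 runs that rose (red) held 3 to 37 probe sets and the 3 that fell (blue) held 13 to 34, and the runs of 50 or more lie close to 0.

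The run with most called probe sets lay on chromosome 12 between GRIN2B, a subunit of the NMDA glutamate receptor, and GUCY2C, a receptor guanylate cyclase of the gut epithelium. Its 16 probe sets had a HCT116-WT median of 4.77, with 1 above background, and a HCT116-DKO median of 9.56, with 13 above background. The median difference was 3.80, at least 3.48-fold, and 11 probe sets were called higher. The called ones stood together: all 11 were at places 3 to 13 in the run, where HCT116-WT signals were 2.50 to 6.95 and HCT116-DKO signals 9.21 to 10.65. At place 7 the signal went from 6.82 to 10.65, at least 7.42-fold and the highest bound of the run. At place 6 it went from 2.50 to 9.65, at least 3.69-fold. Outside these places, the first pair was also higher, by 3.51 and 3.77, but was under background in both arrays. After them, place 14 was under background, place 15 went from 7.49 to 9.48, and the last probe set was at 8.35 and 8.14. Neither flanking gene had moved: GRIN2B had a median difference of 0.16 and GUCY2C of 0.03, and both were under background in both arrays.

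On chromosome 7, all 10 probe sets between XRCC2, a recombination repair protein, and PAXIP1, which acts in the response to DNA damage, were higher, 9 of them by the rule. The median went from 6.85 to 10.57, with a median difference of 2.84, at least 6.97-fold. In HCT116-WT the signals were 4.34 to 8.59 and 3 were above background, and in HCT116-DKO they were 8.09 to 11.58 and all 10 were. The 2 ranges overlapped between 8.09 and 8.59, but every probe set was higher than its own HCT116-WT signal. The highest bound was at place 9, from 6.59 to 11.58, at least 14.1-fold. Place 1 was not called, with 6.43 and 8.09. XRCC2 differed by 0.12 and PAXIP1 by -0.42. This run was outside the 8 longest that rose and was chosen after its values were seen.

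On chromosome 1, the 11 probe sets between OMA1, a protease of the inner mitochondrial membrane, and MYSM1, a histone H2A deubiquitinase, went from a median of 6.40 to 9.84, with a median difference of 2.67, at least 4.20-fold. Of the 11, 6 were called higher. The probe set at place 2 had the highest bound, at least 15.3-fold, from 5.45 to 11.70. Differences were smaller towards the end of the run. At places 3, 4 and 5 they were 5.36, 4.37 and 4.07, and at the last pair -0.05 and 0.18. The flanking genes, bright in both arrays, differed by -0.24 (OMA1) and -0.28 (MYSM1).

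The longest runs that rose were of another kind, with most probe sets already bright in HCT116-WT and small differences mostly in the same direction. The 37 probe sets on chromosome 2 between ZNF514, a zinc finger gene, and ADRA2B, the alpha-2B adrenergic receptor, had medians of 8.80 and 10.39 and a median difference of 1.41, and 32 were positive. Only 1 of them was called, from 8.38 to 10.54. Places 1 to 9 were under background in HCT116-WT, at 2.04 to 7.19, and only place 5 passed it in HCT116-DKO. A gap in the IDs lay between them and place 10. The middle of the run differed from its ends: at places 10 to 35 most differences were over 1, and the last pair differed by -0.09 and -0.26. Also on chromosome 2, the 29 probe sets between HIBCH, an enzyme of valine breakdown, and STAT4, a transcription factor of cytokine signalling, went from a median of 10.29 to 11.59. The differences of all 29 were positive, 0.12 to 1.83 with a median of 1.16, and 0 were called. The flanking genes did not move with them, since HIBCH differed by -0.26 and STAT4 by 0.03.

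**Figure D4:**
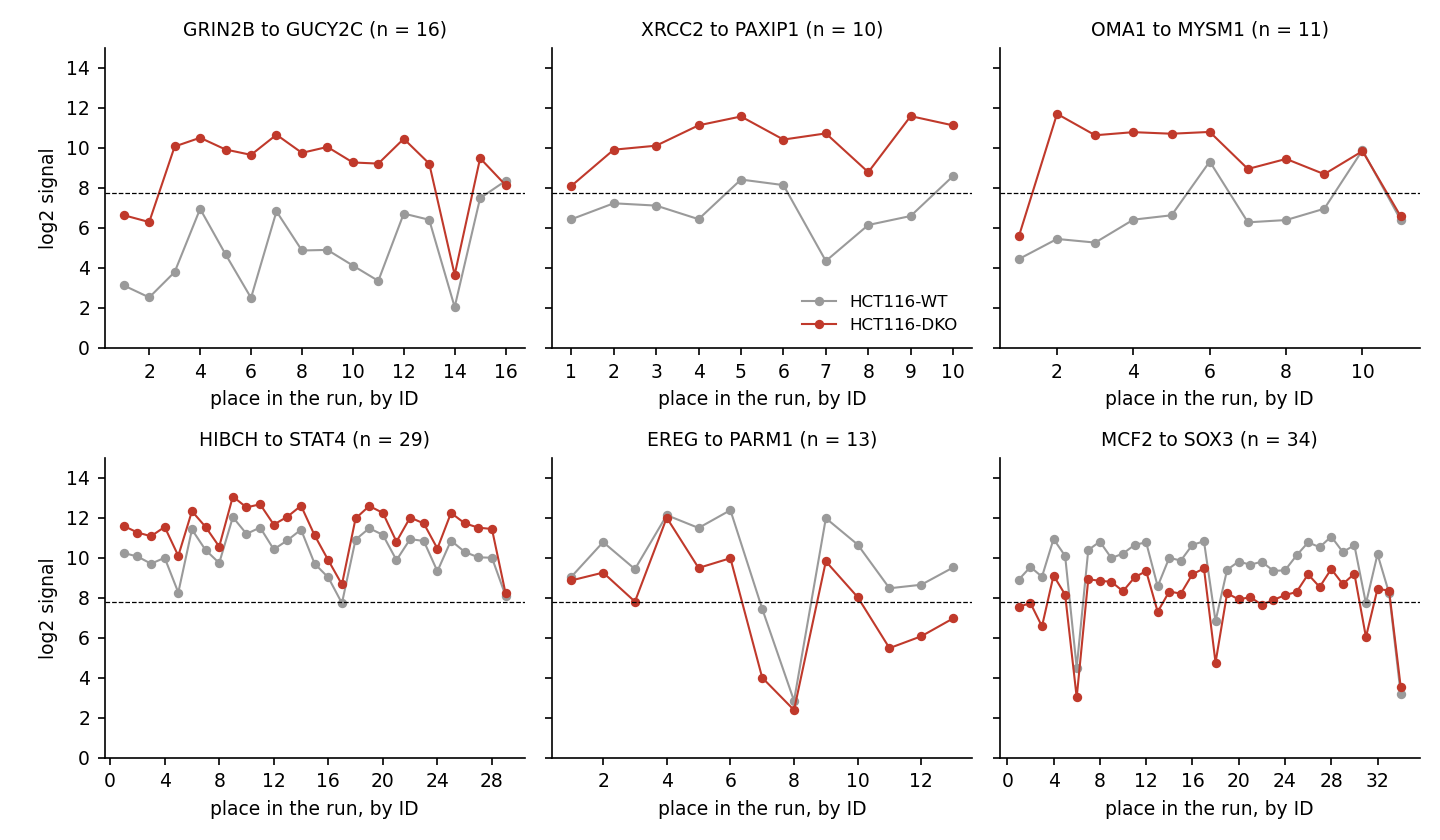
Log2 signal in HCT116-WT (grey) and HCT116-DKO (red) of each probe set of 6 changed runs, in the order of their IDs, with the HCT116-WT background (dashed, 7.76). In the first 3 runs most probe sets go from below background to above it, whereas between HIBCH and STAT4 the 29 probe sets keep their profile at a level higher by a median of 1.16, and between EREG and PARM1 and between MCF2 and SOX3 they are lower.

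The other long runs that rose had smaller or more mixed changes. On chromosome 5, 14 probe sets between FGF10, a growth factor, and EMB, the chaperone embigin, were all higher, with medians of 5.92 and 7.79 and a median difference of 1.70. Of the 14, 7 were above background in HCT116-DKO and 3 were called. On chromosome 14, 12 probe sets between KHNYN and the ubiquitin ligase gene G2E3 had medians of 6.66 and 8.96. The 3 called there were the last 3 of the run, and place 11 went from 3.57 to 9.65, at least 3.71-fold. On chromosome 9, all 17 probe sets between those shared by FAM74A1 and other genes and those shared by FAM27E2 and another were higher by 0.39 to 2.20, and 0 were called. The median difference of that run was 1.02, and it was 0.84 after quantile normalization and 0.93 after median centring, below the rule for runs. On the X chromosome, 13 of 14 probe sets before PLXNB3, a semaphorin receptor, were higher, with a median difference of 1.06, and 0 were called. That median was 0.96 and 0.97 under these scalings, again below the rule.

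The GAGE and TUBA3 families were picked for description after their values were seen. GAGE genes form a repeated array of cancer-testis genes on the X chromosome, expressed in germ cells and some tumours. Among the probe sets shared by several GAGE genes lay 9 without a name, in 5 runs. Their signals were 3.74 to 9.29 in HCT116-WT and 9.82 to 11.45 in HCT116-DKO, so the arrays did not overlap over these 9, and 8 were called higher. The highest bound among them was at least 12.9-fold, from 5.24 to 11.45, and another went from 3.74 to 11.22. The 15 shared GAGE probe sets around them moved alike, with 14 called higher and a median difference of 4.45 beside 4.84 for the nameless ones. The 4 probe sets of GAGE1 alone were under background in both arrays, and 0 were called. One more probe set, a run of its own between CCDC22 and the first of the shared ones, went from 9.33 to 11.35. Which copies these probe sets match was not tested, and the 9 are not counted as separate transcripts.

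TUBA3 genes encode alpha-tubulins that are mainly expressed in testis. On chromosome 13, 7 probe sets without a name lay among those shared by TUBA3C and another gene, in 3 runs, and 5 were called higher. In the run of 3 that rose, the first went from 5.77 to 13.11 (at least 40.6-fold, the largest bound of all), the second from 7.91 to 9.24 and the third from 6.53 to 13.04. Both of the next run were called as well, from 8.39 to 12.32 and from 5.23 to 10.87. A further one, at 12.68 and 12.96, was bright in both arrays and differed by 0.28. Of the 7 shared named probe sets around them, 2 were called higher. The nearest gene named alone on one side, TPTE2, a phosphatase gene of testis, rose from 4.08 to 7.92. On the other side CDC16, a subunit of the anaphase-promoting complex, differed by 0.24.

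Other short runs rose with or without their neighbours. Between OR3A2 and OR3A1, olfactory receptor genes of chromosome 17, all 4 probe sets were higher, from a median of 7.04 to 8.50. There the neighbours moved too: OR3A1 rose from 6.07 to 8.97, and the single probe set of OR3A2 went from 6.66 to 9.86. On chromosome 4, the 3 probe sets between SORCS2 and LOC389199 were all called, at 6.78 to 7.26 in HCT116-WT and 9.34 to 9.64 in HCT116-DKO, whereas SORCS2 differed by -0.18. On chromosome 2, 4 probe sets between PUS10 and USP34 had a median difference of 4.02, from a median of 4.79 to 8.02, and neither gene differed by more than 0.1. That difference started from low signal, and the fold between the medians was only at least 1.20. In HCT116-WT none of the 4 passed background. The 2 that passed it in HCT116-DKO were called, and the other 2 stayed under it there, at 7.15 and 6.76. The run of 4 between OR3A2 and OR3A1 and the last pair of runs were chosen after their values were seen.

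A few further short runs were bright in both arrays. Between DHX30, an RNA helicase, and CAMP, which encodes the antimicrobial peptide cathelicidin, on chromosome 3, the first 4 of 6 probe sets were at 10.42 to 11.48 in HCT116-WT and at 11.89 to 13.23 in HCT116-DKO, and 2 were called. The last pair of that run was under background in both arrays. Between C19orf12 and TSHZ3 on chromosome 19, 3 of 4 were bright, and the second went from 9.56 to 12.83, 9.66-fold. Between SFTA2 and NELFE, a subunit of a factor that pauses RNA polymerase, on chromosome 6, the 3 probe sets were at 10.28 to 11.03 and at 12.32 to 12.77, with a median difference of 1.79. None of the 6 flanking genes had changed.

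The remaining runs that rose had 3 to 11 probe sets. On chromosome 2, 10 of 11 between HJURP, the chaperone of the centromeric histone, and GBX2, a homeobox gene, were higher, with a median difference of 1.62 and 4 called, one of them from 7.48 to 10.38. On chromosome 7, all 11 between TRIM56, a ubiquitin ligase of antiviral signalling, and AP1S1, an adaptor subunit of vesicle coats, were higher, with a median difference of 1.15 and 3 called. These 2 runs differed along their length: the called ones were at places 1 to 3 and 7 in the former and at 7, 8 and 11 in the latter. On chromosome 16, all 8 between FANCA, a Fanconi anaemia repair protein, and DBNDD1 were higher by 0.60 to 1.72, with a median difference of 1.03 that was 0.95 after quantile normalization and 0.94 after median centring, below the rule. On chromosome 20, 3 probe sets enclosed by LOC643406 were higher by 1.11 to 1.49, where its 6 named ones had a median difference of 0.01. These runs, and the 3 bright ones above, were chosen after their values were seen.

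Some runs with many higher signals did not count as changed, and these too were picked after their values were seen. In CEP170 to ADSS2, 7 of 20 were called higher and 17 were positive, with a median difference of 3.37, but the HCT116-DKO median of 7.10 was not above background. In AKAP10 to USP22, 5 of 21 were called higher with a median difference of 0.39. In TP53TG3 to SHCBP1, 24 of 25 were positive, with a median difference of 1.05, and 1 was called, but the HCT116-DKO median of 5.70 was not above background.

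Decreases were few. The highest measured fold was 6.17, from 10.66 to 8.03, in the run between EREG and PARM1 described next. On chromosome 11, between the olfactory receptor genes OR4C12 and OR4A5, place 4 of a run of 10 went from 8.25 to 4.19, at least 1.46-fold. At place 6 of the same run the signal went from 3.85 to 9.50, at least 3.32-fold, so this run contained calls in opposite directions. Other single decreases were from 9.95 to 7.02 between CFL1P1 and LIPF on chromosome 10, from 9.39 to 6.88 between CYP1B1 and HNRNPLL on chromosome 2, and from 9.29 to 6.87 between BSND and PRKAA2 on chromosome 1. None of these 4 runs counted as changed.

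Of the 3 runs that fell, the one with the largest median difference lay on chromosome 4 between EREG and PARM1. EREG encodes epiregulin, a ligand of the EGF receptor, and it fell as well, from 10.75 to 7.003, with all 8 probe sets lower. All 13 probe sets of the run were lower, with medians of 9.51 and 8.03, a median difference of -2.16 and 6 called lower. The called ones were at places 6 and 9 to 13, and the brightest went from 12.38 to 9.97. Not every bright probe set moved, since place 4 was at 12.13 and 11.997 and place 1 at 9.04 and 8.86. On the other side, PARM1 differed by -0.32.

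The other runs that fell did so evenly and without their neighbours. The 34 probe sets on the X chromosome between MCF2 and SOX3, a transcription factor, had medians of 9.99 and 8.299, a median difference of -1.62, and 32 were negative. The exceptions were the last pair, with differences of 0.12 and 0.35. Of the 34, 2 were called lower, from 9.05 to 6.57 and from 9.80 to 7.65. MCF2 differed by 0.06 and SOX3 by -0.15. On chromosome 5, the 29 probe sets between NSA2, a ribosome assembly factor, and POLK, a DNA polymerase that copies past damaged bases, were among the bright ones, with medians of 12.03 and 10.88. All 29 were lower, by -0.14 to -1.69 with a median of -1.15, and 0 were called. NSA2 differed by -0.38 and POLK by -0.14.

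Where the nearest probe set with 1 gene was of the same gene on both sides, the gene gave a measure of its own. This held for 1368 probe sets (8.09%) in 556 genes. Their difference had the sign of the gene's median difference in 60.4%, lay within 1 of it in 91.4%, and correlated with it with a Pearson coefficient of 0.293 and a Spearman coefficient of 0.239 over probe sets that share both arrays. Among the 666 above background in at least 1 array, these were 0.518 and 0.363. Most of these genes did not change, and 0 of 1327 probe sets inside the 544 unchanged genes were called. Over all probe sets without a name 0.669% were called higher and 0.0828% lower. Of the 1327, 613 were above background in HCT116-DKO, so many could not be called higher. The 41 inside 12 genes that rose had a median difference of 0.41, 36 were positive, 10 were higher by at least 1, and 2 were called.

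**Figure D5:**
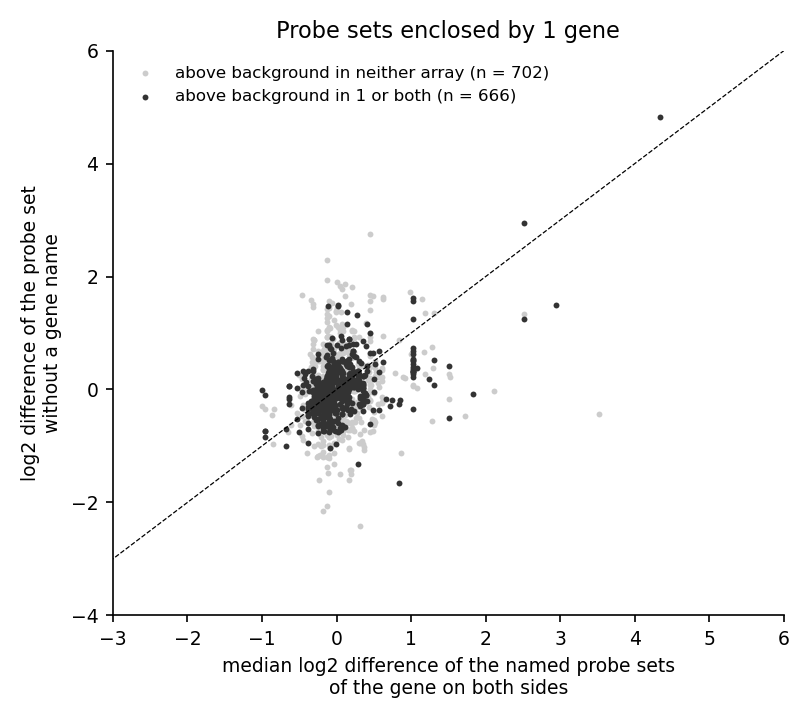
Log2 difference of each of the 1368 probe sets without a name that are enclosed by 1 gene (vertical axis) against the median log2 difference of that gene's named probe sets (horizontal axis), with the line of equality dashed. The 666 above background in at least 1 array are dark, and 2 of all those shown were called, in SQLE and HOXB6.

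The 2 called ones went in the direction of their genes. In SQLE, squalene epoxidase of cholesterol synthesis, the enclosed probe set went from 6.23 to 11.05, and the median of the 15 named ones from 6.18 to 11.03. In HOXB6, a homeobox gene, the third of 3 enclosed probe sets went from 5.48, below background, to 8.42, at least 1.57-fold. The other 2 differed by 1.24 and 1.34. The named ones of HOXB6 were brighter, with medians of 8.19 and 10.70 and a median difference of 2.52. The opposite also occurred: in BST2, an interferon-induced antiviral gene that rose from 6.504 to 9.69, the enclosed probe set was under background in both arrays, at 3.87 and 3.43. In CCDC144A, 20 of 21 enclosed probe sets were positive with a median difference of 0.40, from 9.74 to 10.26, whereas the gene's 10 named ones had a median difference of 1.02. BST2 and CCDC144A were chosen after their values were seen.

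Some unchanged genes enclosed many probe sets without a name. USP22, a deubiquitinase of a histone-modifying complex, enclosed 84 in several runs, with a median of 7.43 in HCT116-WT, below background, where its 20 named ones had a median of 10.48. PARK7, an oxidative stress protein, enclosed 50 with a median of 6.87, and its named ones were at 10.08. FNTA, a subunit of farnesyltransferase, enclosed 31 at 6.38, and NONO, an RNA-binding protein of paraspeckles, enclosed 26 at 7.31. In contrast, EEF1A1, a translation elongation factor, enclosed 10 with a median of 13.97 in HCT116-WT, of which 0 were positive, and its 24 named ones were at 13.67. These genes were picked by the number of probe sets they enclosed, EEF1A1 by its level.

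The gene lists gave few members. A probe set counted for a list when the named genes on both sides belonged to it. Between ribosomal protein genes lay 79, with a median difference of -0.14, 20 of them positive and 0 called, beside -0.13 for the named probe sets of these genes and 0.008 for all without a name. Between ZNF genes lay 144, of which 91 were positive with a median difference of 0.10, and 1 was called (0.694%), from 6.23 to 9.29 between ZNF610 and ZNF528. That share was near the 0.669% called higher over all without a name, and 1 call is too few to read a difference from. Of the 413 ZNF genes 19 rose and 2 fell, and 2.65% of their named probe sets were higher. Between olfactory receptor genes lay 86, of which 4 were higher (4.65%) and 1 lower. Among the named probe sets of these genes 0.462% were higher. Named olfactory receptor probe sets set the background, so the rule itself kept that share low, and the 2 shares cannot be compared. The 4 higher ones without a name lay in only 2 runs, those between OR4C12 and OR4A5 and between OR3A2 and OR3A1. Interferon-stimulated and germline genes had few of these probe sets between them. Of 50 interferon-stimulated genes 24 rose and 17.4% of their named probe sets were higher, but only 4 probe sets without a name lay between them and 0 were called. Of 45 germline and cancer-testis genes 16 rose and 22.1% of their named probe sets were higher, and the 6 between them had 0 called, and of 99 with such a gene on at least 1 side the 9 higher ones were all the GAGE ones given above. The 3 between HOX genes were those of HOXB6.

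By chromosome, higher probe sets without a name made up 2.45% on chromosome 13 (6 of 245), 1.82% on chromosome 7 (14 of 770), 1.44% on chromosome 12 and 1.39% on the X chromosome. Among probe sets of 1 gene, 81 of 5070 on chromosome 13 were higher, and the shares on chromosomes 7, 12 and X were 1.20%, 1.04% and 0.411%. The higher ones without a name lay in 4 runs on chromosome 13, 4 on chromosome 7, 2 on chromosome 12 and 6 on the X. All 9 on the X lay among or beside the shared GAGE probe sets, and 5 of 6 on chromosome 13 were TUBA3 ones. The run between GRIN2B and GUCY2C held 11 of 13 on chromosome 12, and that between XRCC2 and PAXIP1 held 9 of 14 on chromosome 7. These shares thus rest largely on single runs or families. No probe set without a name was higher on chromosomes 10 (of 642), 9 (of 553), 20 (of 366), 18 (of 155) and 21 (of 81). The same held for the few on the Y chromosome and the mitochondrial genome. Among probe sets of 1 gene on chromosomes 10, 9, 20, 18 and 21, in that order, 1.87%, 0.849%, 1.08%, 1.43% and 3.10% were higher. At the share of 0.669% over all without a name, the 81 on chromosome 21 are too few to read a difference from.

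None of the 5 brightest probe sets without a name was called. These signals were near the top of the range of both arrays, so no stability is read from them. The brightest of all, at 14.99 and 14.92, lay in a run of 7 that ended at ND1, a mitochondrial gene, and another of this run was at 14.36 in both arrays. Single probe sets were at 14.35 and 14.40 between CYRIA and SMC6, and at 14.33 and 14.38 between PRKCI and SKIL. The last of the 5 was at 14.34 and 14.28, in a run between FKBP11 and WNT10B. All 5 differed by less than 0.1.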

How the data were processed

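The values deposited by the authors are log2 signals of exon-level probe sets, from 1 array each of HCT116-WT and HCT116-DKO (Affymetrix Human Exon 1.0 ST). The submitters' processing notes name RMA. The methods list Expression Console and Partek Genomic Suite, the latter for exon intensities. Which one gave the deposited values, and with which other arrays they were normalized, is not given in these sources. Annotation in the study was on hg18, and no coordinates were used.

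Probe sets were named through GEO's platform annotation, dated 2014, with symbols updated through RefSeq genes (assembly GRCh38.p14), which also gave chromosomes. After the update 99.4% of 16920 symbols were current. Values were used as deposited, and their number, 2 arrays, limits the precision. No test was run. Rules of size for probe sets, runs and genes are given with the results. Levels of runs and genes are medians over probe sets, and their difference is the median of the probe set differences, so it can depart from the difference of the medians. Where the dimmer array was not above background, a fold is at least the brighter signal over the higher of background and the dim signal.

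The members, the 14 gene lists and the rules were chosen with earlier results of these data known. Named by rule were DNMT1 and DNMT3B, the 12 largest increases and 10 largest decreases, the 8 longest runs that rose and up to 4 that fell, the 5 brightest probe sets, up to 3 called ones per list and the 4 just inside and outside each threshold. Only those that carry the description are given singly. Any other was chosen after its values were seen.

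Alternatives were other thresholds, backgrounds, scalings (quantile normalization, median centring), run lengths and member sets. The procedure was tested on simulated data. Python 3.11.15, NumPy 2.4.6, pandas 2.3.3, SciPy 1.17.1 and Matplotlib 3.10.9 were used.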

Additional observations from a re-analysis of the deposited data

How the results depend on the processing

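The counts of called probe sets, 113 higher and 14 lower, moved with the rule of size. They were 318 and 118 at a threshold of 1, 62 and 1 at a threshold of 3, 52 and 8 with background at the 99th percentile, 211 and 44 with no demand on background, and 16 and 1 when each run was represented by its median member. Quantile normalization and median centring each gave 106 higher and 20 lower, and in each case 106 of the 113 and 14 of the 14 were shared. The median difference of 0.008 was -0.084 after quantile normalization, -0.082 after centring and -0.004 among probe sets above background in at least 1 array, of which 91.7% were above it in HCT116-WT and 95.8% in HCT116-DKO, so its sign depends on scaling. The 23 runs that rose became 13 with at least 5 probe sets and 10 at a run threshold of 2, and the 3 that fell became 5 with no demand on background and 1 at that threshold. After quantile normalization 20 runs rose. The runs at FAM74A1, FANCA and SLC6A10P were then at 0.84, 0.95 and 0.96, and after centring at 0.93, 0.94 and 0.97, below the threshold of 1. The scalings moved the median of all probe sets from 0.028 to -0.053 and -0.063. That was enough to take these runs below the rule, but no changed run reversed its direction. Of the probe sets enclosed by 1 gene, the share with the sign of the gene, 60.4%, was 63.1% after quantile normalization and 66.8% among those above background, and the share within 1 of the gene, 91.4%, was 97.0% among those above background. No replicate could be left out. No paired analysis was possible because each group has 1 array. With 1 array per group, low signals near background limit all folds written as at least.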
